A study of Homo sapiens with 12 samples.

Results

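The kinesin family genes were followed through ac4C peak lists of a colorectal cancer cell line with and without knockdown of NAT10. Members were the protein-coding genes whose symbol is KIF and a number, together with KIFC1, KIFC2 and KIFC3, which gave 42 of the 20056 protein-coding genes with a listed span in GRCh38.p14. A peak was counted for a gene when its midpoint lay in the gene span on the strand of the gene. The members include KIF23, which the study's text names in connection with ac4C in colorectal cancer.

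Kinesins are motor proteins that use ATP to move along microtubules or to take them apart. Some build the mitotic spindle, move chromosomes or act at the midzone when the cell divides, and others carry vesicles, organelles or proteins through the cytoplasm or along the cilium. N4-acetylcytidine (ac4C) is an acetylated form of cytidine in RNA, and NAT10 is the enzyme known to write it.

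Acetylated RNA immunoprecipitation sequencing (acRIP-seq) enriches RNA fragments with an antibody against ac4C, so that modified stretches appear as peaks of reads. It was done in SW620, an established human colorectal cancer cell line, with 3 immunoprecipitation libraries from cells with the control shRNA (shControl, genotype given as WT) and 3 from cells with an shRNA against NAT10 (shNAT10, genotype given as NAT10 knockdown). The study worked with lines stably transduced by lentivirus, and which of its shRNAs made these libraries is not given in the sources used here. The 6 input libraries were not analysed here, and since nothing says that the replicates came from separate cultures, p-values measure only the spread between these libraries.

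The lists held 18241, 22619 and 20063 peaks in control and 28752, 17877 and 19047 in NAT10-knockdown libraries, with no read counts, so the depth is unknown. Knockdown replicate 1 had the longest list, and 24.9% of its peaks lay in regions that no other library shared, against 4.04% to 16.5% in the other 5. The NAT10 gene had 1, 0 and 2 peaks in control and 2, 0 and 1 in knockdown libraries, and such numbers say nothing of how much NAT10 was left. Of 12 markers of colorectal epithelium 9 had a peak and 5 had one in all 6 libraries, with KRT18, KRT20 and CDX1 at 0 peaks, whereas 0 of 8 markers of other cells had a peak in all 6. A transcript that is more abundant gives more fragments, so an altered share of acetylated molecules and an altered amount of the transcript cannot be told apart in these lists.

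The starts of the genes are shown first, because the ac4C peaks of several kinesins lay there. The promoter table of RefSeq on GRCh38.p14 gave a start for 34 of the 42 members. Distances from the gene start and positions along the gene, given further below, are instead measured from the edge of the gene span. The 2 can differ, as in KIF7 (minus strand), with a listed start at chr15:89655467 and a span that reaches chr15:89663049. A start was counted as covered when a peak lay over at least 30 of the first 50 bases of the transcript. Bases 21 to 50 after the start are printed 5′ to 3′ for 6 members, with capitals for every base of a match, wholly inside these bases, to CNNCNNCNN, a regular spacing of C that has been linked to ac4C. KIF2A, KIF1C and KIF22 stand for starts covered in all 6 libraries, KIF3A for a start whose peak ranked lower in every knockdown library, KIF6 for a start covered only in knockdown libraries, and KIF23 for a start with no peak.
KIF2A, chr5:62306226-62306255, plus strand: aCGGCCCCGGCCCtagCTTCACCCCGACTA
KIF1C, chr17:4997970-4997999, plus strand: gCGCCGGCCGCTGgcgCCGCTACTGCTGcc
KIF22, chr16:29790771-29790800, plus strand: cggctcgacgcagcagaggcgacgcgagat
KIF3A, chr5:132737497-132737526, minus strand: gCGTCAACGAggtgtttcggtagtctctgg
KIF6, chr6:39725359-39725388, minus strand: tcgccggaggtggtgggagttagttttggc
KIF23, chr15:69414369-69414398, plus strand: cgcgaagttctagttcttgctgccggtcct

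Of the 34 kinesin starts 18 (52.9%) were covered in at least 1 library, beside 35.9% of 15843 starts of protein-coding genes. In all 6 libraries 12 (35.3%) were covered, beside 15.8% of all starts, and the part of expression in these shares was not tested. These 12 were KIF13A, KIF16B, KIF1C, KIF21A, KIF22, KIF2A, KIF3A, KIF3B, KIF3C, KIF5B, KIF9 and KIFC1, of which most carry cargo and KIF22, KIF2A and KIFC1 act in mitosis. The covered starts differed widely in their C content, from 26 C among the first 50 bases of KIF2A to 10 in KIFC1. KIF6 had 7.

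The motif CNNCNNCNN, read on the transcript strand with overlapping matches allowed, was found in the first 50 bases of 21 of the 34 kinesin starts (61.8%) and of 63.7% of all starts. It was present in 9 of the 12 kinesin starts covered in all 6 libraries (75%) and in 10 of the 16 that were never covered (62.5%). Over all genes the same shares were 69.9% and 61.2%. KIF22 and KIF6 had no match in this window, and KIF23 had one that does not lie wholly in the printed bases. The motif is thus about as frequent at kinesin starts as at other starts, and a match is a description of the letters only.

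At least 1 library listed a peak in 35 of the 42 kinesin genes (83.3%), and all 6 did so in 21 (50%), against 61.3% and 29.8% of all protein-coding genes. The kinesin genes are also longer, with a median span of 56139 bases against 24093, and the part of length or of expression in these shares was not tested. No peak midpoint was listed in KIF18A, KIF19, KIF20A, KIF24, KIF25, KIF2B and KIF5C. KIF18A is listed without a peak because of the midpoint rule, as its start was covered in 4 libraries by a peak centred outside the gene span. KIF9 is counted with a peak in 4 libraries for the same reason, while its start was covered in all 6.

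The control libraries held 78, 96 and 84 kinesin peaks and the NAT10-knockdown libraries 141, 73 and 82. Control libraries averaged 86 ± 9.17 and knockdown libraries 98.7 ± 36.9 (SD, n = 3), a difference within the spread of the knockdown libraries, and without knockdown replicate 1 the difference turned to -8.5 peaks. As a share of each list the kinesin peaks made up 0.428%, 0.424% and 0.419% in control and 0.490%, 0.408% and 0.431% in knockdown. Knockdown replicate 1 was thus the library with both the most kinesin peaks and the highest share, and the other 5 lay close together.

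Much of the excess of knockdown replicate 1 was in peaks that no other library shared. Merging peaks that overlapped by at least 1 base on the same strand gave 196 kinesin regions, of which 86 (43.9%, against 38.7% of all regions in genes) were seen in 1 library and 40 (20.4%, against 21.9%) in all 6. In 20 genes knockdown replicate 1 had more peaks than any of the other 5 libraries, a count that was not made for all genes. Knockdown replicate 1 alone gave 49 of the 86 regions seen once, and control replicate 2 gave 17. Such regions held 34.8% of the kinesin peaks of knockdown replicate 1, against 24.9% of all its peaks. In control replicate 2 the shares were 17.7% and 16.5%. The peaks in regions shared by all 6 libraries numbered 40, 40 and 39 in control and 41, 39 and 39 in knockdown. These numbers are nearly fixed by the definition, since each of the 40 shared regions holds a peak of every library. The 40 shared regions lay in 18 genes, and 30 of them (75%, against 69.3% of all such regions) had the same start and end in every library.

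**Figure D1:**
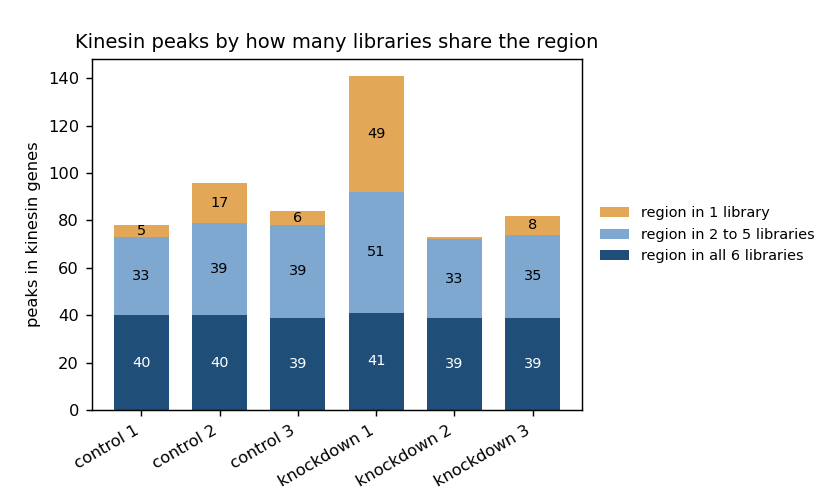
Number of peaks in kinesin genes (y axis) in each of the 3 control and 3 NAT10-knockdown libraries (x axis), stacked by whether the merged region was seen in all 6, in 2 to 5 or in 1 library. The part seen in 1 library ranges from 1 in knockdown replicate 2 to 49 in knockdown replicate 1. The part shared by all 6 libraries is 39 to 41 peaks, a number nearly fixed by its definition.

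Among the 35 genes with a peak, the mean number of peaks was higher in knockdown for 22, higher in control for 7 and equal for 6. Over all 12293 genes with a peak the numbers were 5491, 3916 and 2886. This balance rested on 1 library, since without knockdown replicate 1 the kinesin counts became 13 higher in knockdown, 20 higher in control and 2 equal. The counts without that library, which had the longest list, were not made for all genes, so this change cannot be called particular to kinesins. By the two-sided exact permutation test on the number of peaks, 1 kinesin gene of 35 reached p = 0.1, the smallest value that 3 libraries against 3 allow, beside 2.25% of all genes. The smallest Benjamini-Hochberg adjusted p over all genes was 1, and no gene was at an unadjusted p under 0.05, which this design cannot reach.

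A gene or region was called for a group when each of its 3 libraries listed a peak there and no library of the opposite group did. No kinesin gene was called for control, where the share of all genes was 0.334%, and 1 of 35, KIF6, was called for knockdown, where it was 0.366%. When a gene needed only 2 more libraries in one group, 0 were called for control (all genes 4.19%) and again KIF6 alone for knockdown (all genes 3.51%). The number of peaks was higher in every control library than in any knockdown library for 0 kinesin genes (all genes 0.659%) and higher in every knockdown library for 1, KIF6 (all genes 1.59%). A single gene of 35 cannot be read against shares this small.

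**Figure D2:**
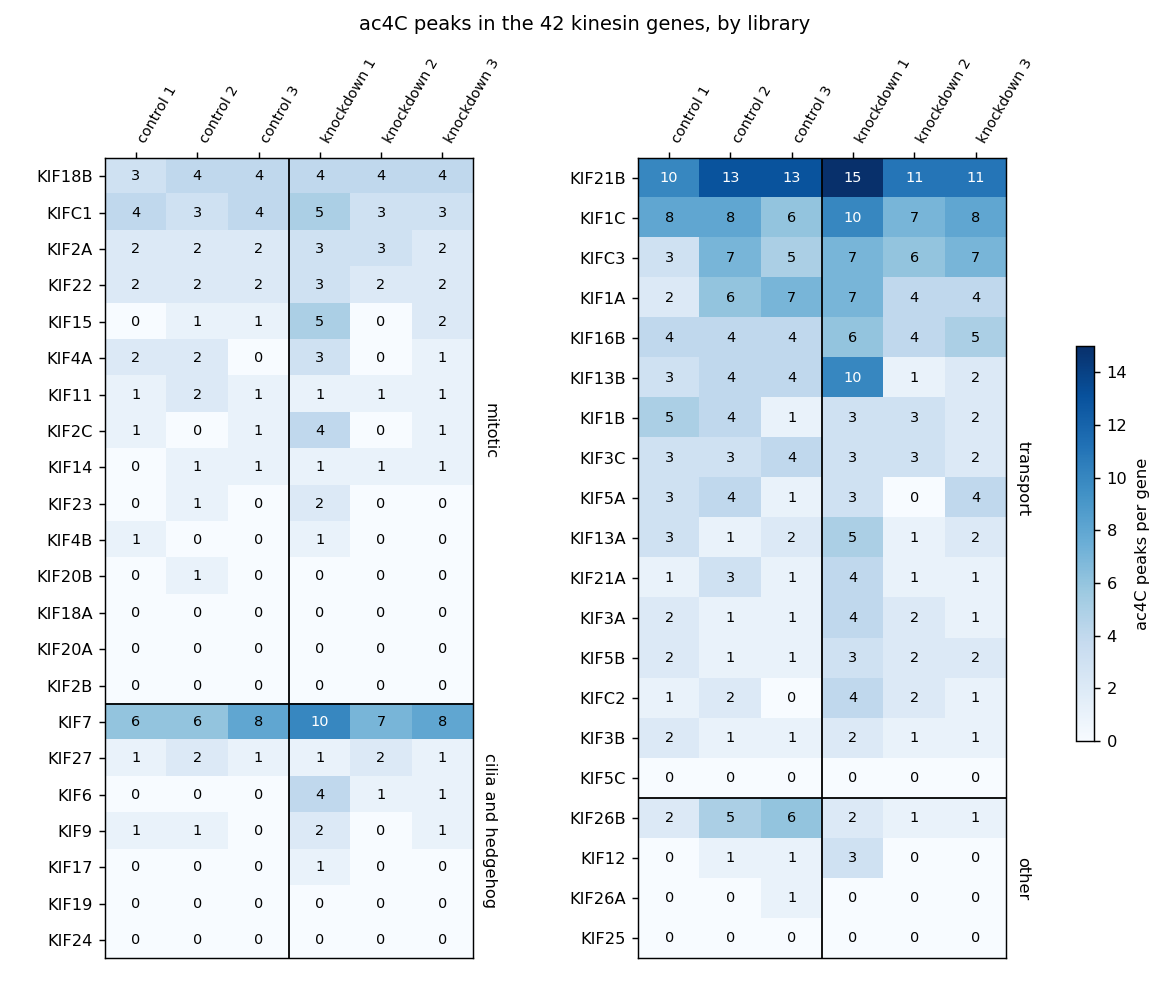
Number of ac4C peaks (colour and digits) in each of the 42 kinesin genes (rows, grouped by role and sorted by mean) in the 3 control and 3 NAT10-knockdown libraries (columns, split by a vertical line). KIF21B has the most peaks, at 10 to 15 per library, KIF6 has peaks in the knockdown libraries only, and 7 genes have none.

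Among the 15 mitotic kinesins 12 were marked in some library and 5 in all 6. KIF23 (chr15:69414349-69448427, plus strand), the motor of the centralspindlin complex that bundles midzone microtubules for cytokinesis, had 0, 1 and 0 peaks in control and 2, 0 and 0 in NAT10-knockdown libraries. Each group thus had 1 library with peaks and 2 without. The difference was not larger than the spread (two-sided exact permutation test on peak number and Fisher's exact test on presence, both p = 1, n = 3 per group).

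None of the 3 KIF23 peaks was seen in a second library. The control peak at chr15:69425282-69425323, 32.1% along the gene, ranked at the 52.6 percentile of the scores of control replicate 2. The peaks of knockdown replicate 1 at chr15:69415994-69416045 and chr15:69446009-69446091 ranked at the 6.06 and 17.1 percentiles of that library. KIF23 was 1 of 5 members, with KIF12, KIF17, KIF20B and KIF26A, whose peaks all lay in regions seen in 1 library. When the lists were cut to the upper 50% of scores or to equal length, KIF23 kept its control peak and lost both knockdown peaks, so the direction of the difference depends on that choice.

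Other mitotic members had peaks that returned in every library. KIF11, the bipolar motor that pushes spindle poles apart, had 1, 2 and 1 peaks in control and 1, 1 and 1 in knockdown. Its region at chr10:92593286-92593452, 239 bases from the gene start, was at the top of the score scale in all 6 libraries. Scores of 3100 or more form a block at the top of every list and were set to the 100 percentile, so a difference among them cannot be seen. KIF18B, a motor that shortens astral microtubules, had 3, 4 and 4 peaks in control and 4, 4 and 4 in knockdown, and KIFC1, a minus-end motor that clusters centrosomes, had 4, 3 and 4 and then 5, 3 and 3.

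KIF2A, which takes microtubules apart at their ends, had 2 peaks in each control library and 3, 3 and 2 in knockdown. Its best peak, over the gene start printed above, ranked at the 89.4, 100 and 100 percentiles in control and at 82.3, 78.7 and 81.5 in knockdown. These percentiles did not overlap between the groups, but the scores before ranking did, at 2250.37 in control replicate 1 and 2280.04 in knockdown replicate 1. Scores tied at the top made up 7.85% of the list of control replicate 1 and 14.1% of that of knockdown replicate 1. A second region 48.3% along the gene, chr5:62347130-62347224, ranked higher in every knockdown library, at 56.5, 51.6 and 51.8 in control and 67.7, 59.6 and 57.8 in knockdown. KIF4A and KIF4B had 2, 2 and 0 against 3, 0 and 1 peaks, and 1, 0 and 0 against 1, 0 and 0. KIF4B is a retrotransposed copy of KIF4A, and how reads that fit both genes were placed is not given in the sources used here.

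Of the 16 transport kinesins 15 had a peak and 13 had one in all 6 libraries. Their median span was 81002 bases, against 34079 for the mitotic members, and the roles were not tested against each other. KIF21B (chr1:200969390-201023714), a motor that also limits microtubule growth, had 10, 13 and 13 peaks in control and 15, 11 and 11 in knockdown, the highest numbers of the family. The groups overlapped in part, with knockdown replicate 1 above every control library and control replicate 1 below every knockdown library (exact permutation test, p = 1). It had 6 regions in all 6 libraries, of which the one at chr1:201000390-201000608 was at the top of the scale throughout. Its region near the gene start, chr1:201023343-201023700, ranked at 80.2, 80.1 and 76.0 in control and 83.8, 83.9 and 84.3 in knockdown, a small step without overlap.

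KIF1C (chr17:4997950-5028401, plus strand), which carries vesicles and mRNA to cell protrusions, had 8, 8 and 6 peaks in control and 10, 7 and 8 in knockdown, again with overlap (exact permutation test, p = 0.6). Its region at chr17:5023468-5026644, 89.0% along the gene, was at the top of the scale in all 6 libraries. A short region of 80 bases at chr17:5013653-5013732, 51.7% along the gene, was listed in no control library and in all 3 knockdown libraries, at the 47.2, 25.2 and 18.2 percentiles. Another at chr17:5020492-5020678 was at the top of the scale in knockdown replicates 1 and 3 and absent from the other 4 libraries. In the opposite direction, chr17:5002464-5002642 was present in every control library and, of the knockdown libraries, only in replicate 1.

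KIFC3 (chr16:57758217-57862858), a minus-end motor found at cell junctions, had 3, 7 and 5 peaks in control and 7, 6 and 7 in knockdown. Its peaks covered 503, 1095 and 1436 bases in the control libraries and 1677, 1548 and 1696 in the knockdown libraries, more in every knockdown library. KIF1A, the carrier of synaptic vesicle precursors, had 2, 6 and 7 peaks against 7, 4 and 4. KIF5B, the ubiquitous heavy chain of conventional kinesin, had 2, 1 and 1 against 3, 2 and 2, and its region at the gene start, chr10:32055848-32056431, was at the top of the scale in all 6 libraries.

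KIF3A, a subunit of the kinesin-2 motor that builds cilia, had 2, 1 and 1 peaks in control and 4, 2 and 1 in knockdown. The peak over its start, chr5:132737414-132737638, ranked at 63.3, 58.6 and 36.2 in control and at 14.3, 33.7 and 28.8 in knockdown. It was lower in every knockdown library than in any control library, with means of 52.7 ± 14.5 and 25.6 ± 10.1 (SD, n = 3), while control replicate 3 lay close to the knockdown values.

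Of the 7 kinesins of cilia and hedgehog signalling 5 had a peak and 2 had one in all 6 libraries. KIF6 (chr6:39329990-39725408, minus strand), a motor of cilia, had no peak in the control libraries and 4, 1 and 1 in the knockdown libraries (exact permutation test and Fisher's exact test, both two-sided p = 0.1, the smallest possible with n = 3 per group, adjusted p = 1). The knockdown libraries shared 1 region of 161 bases over the gene start, chr6:39725245-39725405, and the other 3 peaks were in knockdown replicate 1 alone. The shared region ranked at the 53.0 percentile in knockdown replicate 1 but at 2.67 and 4.80 in replicates 2 and 3, close to the lower end of those lists. The call was lost with the upper 50% of peaks and with lists of equal length.

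KIF7, which regulates GLI factors at the tip of the cilium, had 6, 6 and 8 peaks in control and 10, 7 and 8 in knockdown. Its region at chr15:89648255-89648774 ranked at 40.2, 53.2 and 53.3 in control and 72.7, 61.8 and 55.3 in knockdown, higher in every knockdown library. Its highest region, chr15:89633686-89633883, ranked at 90.7 in control replicate 1 and at the top of the scale in the other 5. The opposite strand of KIF7 held another 3 peaks in control replicate 2 and 4 in knockdown replicate 1, which were not counted.

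Of the remaining 4 members, KIF26B had 2, 5 and 6 peaks in control and 2, 1 and 1 in knockdown (exact permutation test, p = 0.2), with control replicate 1 at the level of knockdown replicate 1. It had the largest fall in mean peaks of the family, from 4.33 ± 2.08 to 1.33 ± 0.577 (SD, n = 3). The best KIF26B peak ranked low in control, at the 12.4, 25.8 and 28.2 percentiles, and at 62.2, 0.238 and 25.4 in knockdown. Its region at chr1:245685405-245688240 held 2 peaks in each of control replicates 2 and 3 and knockdown replicate 1, which adds to the counts. No KIF26B region was shared by all 6 libraries. KIF12 had 0, 1 and 1 against 3, 0 and 0, KIF26A had 1 peak in control replicate 3, and KIF25 had none.

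**Figure D3:**
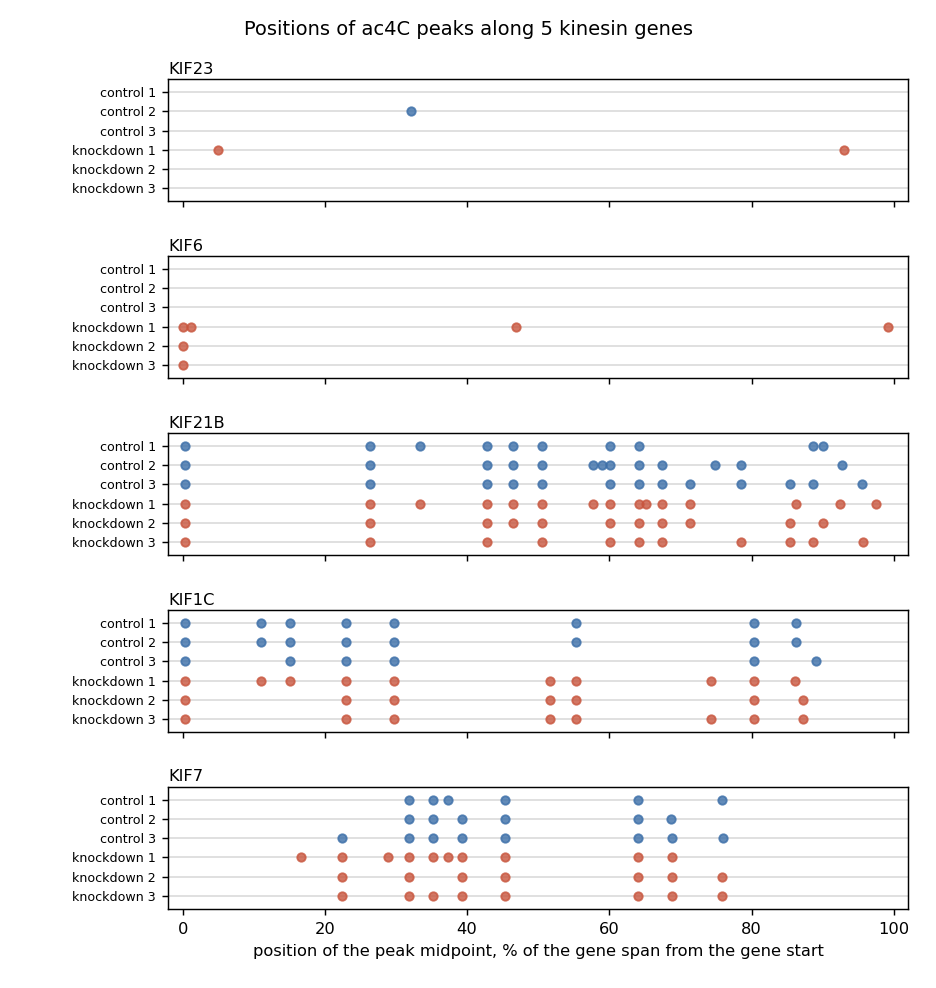
Midpoints of the ac4C peaks (points) along KIF23, KIF6, KIF21B, KIF1C and KIF7, as percent of the gene span from the gene start (x axis), with 1 line per library, control in blue and NAT10 knockdown in red. In KIF21B, KIF1C and KIF7 the same positions return in most libraries, whereas the 3 KIF23 peaks are at 3 different positions and the KIF6 peak shared by the knockdown libraries is at the gene start.

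Over the family, 17.9% of the 554 kinesin peaks lay within 500 bases of the gene start, against 19.7% of all peaks in genes of known strand. Within 500 bases of the gene end lay 1.62% against 3.99%. At 1000 bases the shares were 17.9% against 23.5% for the start and 3.43% against 7.24% for the end. The 2 sets are not alike, since the kinesin peaks include those of 7 genes without a listed strand, which were oriented by their own peaks. These are distances along the genome from the edges of the gene span, and positions relative to exons and coding sequences were not analysed here.

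At the level of regions, 0 of 196 were called for control (all regions 0.339%) and 2 for knockdown (all regions 0.828%), the KIF1C region of 80 bases and the KIF6 start. Where 2 more libraries sufficed, 9 were called for control (all regions 4.04%) and 12 for knockdown (all regions 5.97%), both near the background. Covered bases did not overlap between groups for 0 genes in favour of control (all genes 1.91%) and for 2 in favour of knockdown, KIF6 and KIFC3 (all genes 3.76%).

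The score percentile could be compared in the genes and regions seen in all 6 libraries. The best percentile of a gene was higher in every control library for 2 of 21 kinesins, KIF2A and KIF3A (all genes 3.06%), and higher in every knockdown library for 0 (all genes 4.82%). For KIF2A the scores before ranking overlapped, as given above. Of the 25 regions that were seen in all 6 libraries and never at the top of the scale, 1 was higher in every control library, in KIF3A (all regions 4.38%), and 3 in every knockdown library, in KIF21B, KIF2A and KIF7 (all regions 7.96%). The median difference, knockdown minus control, was 1.68 percentile points over the 25 kinesin regions and 1.94 over all such regions. The mean percentile was lower in knockdown for 9 of the 25 (36%), against 43.2% of all such regions. A percentile also moves with the length and make-up of its own list, which differed between libraries, and regions at the top of the scale in any library, such as the KIF2A start, were left out of these 25.

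**Figure D4:**
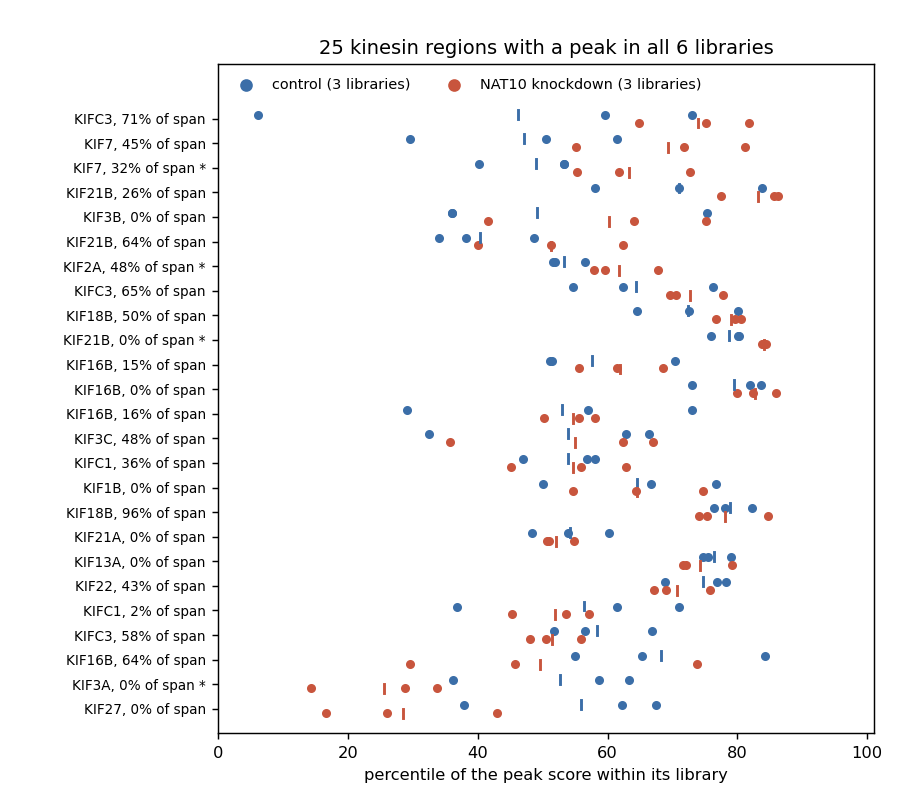
Percentile of the peak score within its library (x axis) for the 25 kinesin regions with a peak in all 6 libraries and none at the top of the scale (rows, named by gene and position in the gene span), with 1 point per library and a tick at the mean of each group of 3. Rows are ordered by the difference between the means, and an asterisk marks the 4 regions whose groups do not overlap, of which KIF3A alone is higher in control.

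Genes that work with kinesins were read by the same rule. Of 25 such genes 21 had a peak and 13 had one in all 6 libraries. None was called for control (all genes 0.334%) or for knockdown (all genes 0.366%). The mean number of peaks was higher in control for 11 of the 21, higher in knockdown for 6 and equal for 4. Over all 12293 genes with a peak these numbers were 3916, 5491 and 2886. Where 2 more libraries sufficed, 1 of the 21, BUB1, was called for control (all genes 4.19%) and 0 for knockdown (all genes 3.51%). BUB1, a spindle checkpoint kinase, had 2, 2 and 0 peaks in control and none in knockdown. KLC1, a light chain of conventional kinesin, had 1 peak in each control library and 4, 4 and 3 in knockdown. Its peak number was thus higher in every knockdown library, as in 1.59% of all genes. BUB1 and KLC1 were picked from the list by these values. RACGAP1, the partner of KIF23 in centralspindlin, had 2, 1 and 1 against 3, 1 and 1, and ECT2, AURKB, TTK and TRAK2 had no peak.

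Myosins and dyneins are the other families of motors. Of 40 myosin heavy chain genes 29 had a peak and 19 had one in all 6 libraries, and of 15 dynein heavy chain genes 11 and 4 did. In both families 0 genes were called for control (all genes 0.334%) or for knockdown (all genes 0.366%). Where 2 more libraries sufficed, 3 of the 29 myosin genes with a peak were called for control (all genes 4.19%) and 0 for knockdown (all genes 3.51%), and no dynein gene was called. The mean number of peaks was higher in control for 8 myosin genes, higher in knockdown for 18 and equal for 3. For dynein genes these numbers were 4, 4 and 3. They were not counted again without knockdown replicate 1, and the families were not tested against each other.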

How the data were processed

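acRIP-seq of SW620 cells was analysed from 6 peak lists, 3 control and 3 NAT10 knockdown. The authors deposited 1 list per library, limited to mRNA, in which each peak has a score, from 50 to 3233.06 over the lists, and named the peaks as MACS does. The definition of the score, the aligner, the caller's version and its settings are not given in the sources used here. The submitters' processing notes name GRCh38. The deposited positions and scores were used as given, with scores ranked within a library, since nothing states that libraries were scaled to each other. The lists hold no counts, so the depth of each library and its part in which peaks were called are unknown. Precision was judged only from the spread between libraries.

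Peaks were assigned to RefSeq gene spans of GRCh38.p14 by midpoint and strand. The reference gave the strand of 34 kinesins and 15842 of 20056 genes, and peaks on either strand were taken for the rest, where all peaks of the 7 kinesins concerned lay on 1 strand. Of 126599 peaks 554 lay in kinesin genes, 4 of them also in another gene. Of all peaks in genes of known strand 96.9% were on that strand. Overlapping peaks were merged into 41755 regions. Groups were compared by presence, two-sided exact permutation test, Fisher's exact test and non-overlap, beside the share of all genes or regions. Named were KIF23, members or regions called by presence, the 5 members with most peaks, the 5 with the highest region found in all libraries, members that do not overlap in covered bases or best percentile, and members without peaks. Other members given with values, such as KIF26B, KIF12, KIF26A, KIF4A, KIF4B, KIF18B and KIFC1, were chosen after their values were seen. The members and lists were chosen with earlier results of these data known. Alternatives were the upper 50% of peaks, lists of equal length (17877 peaks), strand ignored, peaks in 1 gene only, at least 50% of a region covered, a difference of at least 2 libraries, a replicate block, and omission of single libraries. Any overlap with the gene span was added after seeing the data. Code was tested on simulated lists. Python 3.11.15, numpy 2.4.6, pandas 2.3.3, scipy 1.17.1 and matplotlib 3.10.9 were used.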

Additional observations from a re-analysis of the deposited data

How the results depend on the processing

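The gene called for knockdown, KIF6, was no longer called with the upper 50% of peaks or with lists of equal length (0 genes in both). It stayed called with strand ignored, with peaks in 1 gene only and with any overlap of the span. With 2 more libraries required, or with any single library left out, KIF6 could not lose its call. A gene with peaks in all 3 knockdown and 0 control libraries always meets those rules. The replicate block gives no calls. The 2 regions called for knockdown became 0 with the upper 50% of peaks, 1 with lists of equal length and 12 with a difference of at least 2 libraries, where the 0 regions called for control became 9. Leaving out 1 library gave 0 to 3 regions for control and 2 to 6 for knockdown, fewer libraries being needed for a call. The shares of all regions were not computed with cut lists or with 1 library left out. The kinesin counts under those settings thus have no background and are not read as a result about kinesins. The KIF23 difference of 0.333 peaks, knockdown minus control, reversed to -0.333 with the upper 50% of peaks and with lists of equal length, and ranged from -0.333 without knockdown replicate 1 to 0.667 with 1 library left out. The difference in kinesin peaks ranged from -8.5 without knockdown replicate 1 to 25.5, and that in their share of the list from -0.00414 to 0.0369 percentage points. With a replicate block the KIF23 difference was 0.333 (exact sign-flip permutation test, p = 1, smallest possible 0.25) and the paired differences were 12.7 kinesin peaks and 0.0195 percentage points, the same as without it. Same-numbered libraries did not deviate together over all regions (correlations of 0.0215, -0.000239 and 0.0316), over kinesin regions the correlations were 0.159, 0.183 and 0.0909, and not every pair was above 0.1, so the numbers were not taken to pair the libraries. Strand, genes that overlap and the overlap added after the data were seen changed no call. Scores tied at the top of the scale and the lack of read counts limit what a list can show of a peak's size.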
